A study of Mus musculus and Rattus norvegicus with 21 samples.

Results

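Wide stretches of the repressive mark H3K27me3 that were called in the thyroid of Glis3-deficient mice on a low iodine diet (Glis3KO-LID), and in no other H3K27me3 library, were examined where neither NKX2.1 nor PAX8 had a peak. The regions were chosen by the peak lists themselves. A region had to be an H3K27me3 peak of the Glis3KO-LID library of at least 2000 bp on chromosomes 1 to 19, with no base shared with a peak of the 3 other H3K27me3 libraries or with a peak of the transcription factors (TFs) NKX2.1 and PAX8. This left 2605 unbound wide regions of the 18040 H3K27me3 peaks of that library, or 14.4% of its peaks and 16.6% of the bases it covered. The width of the regions, their absence from the other H3K27me3 libraries and their lack of TF peaks are therefore given as description only.

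Chromatin came from whole thyroid glands of C57BL/6 mice labelled as 1 month old. H3K27me3 and H3K4me3 were each mapped by ChIP-Seq in WT and Glis3KO mice on the NIH-31 normal diet (WT-ND, Glis3KO-ND) or the TD.95125 low iodine diet (WT-LID, Glis3KO-LID). The Glis3KO mice carried the mCherry allele, which the labels spell B6.Glis3<tm2(mCherry)Amj> and the methods of the study number as tm3. The NKX2.1 and PAX8 libraries were labelled WT on the LID, whereas the methods describe older Glis3-EGFP mice for them. Neither came from Glis3KO glands, so that unbound means without a TF peak in glands that had GLIS3. Each of these groups had 1 library, so no difference between genotypes or diets has a replicate check and no p-value is given. The Glis3KO-LID library stood apart from the other H3K27me3 libraries, with 18040 peaks over 55.1 Mb against 2631 to 4116 peaks over 7.47 to 13.3 Mb. All 2605 regions rest on it alone, and genotype, diet and the library itself cannot be told apart. At the start site of Glis3, H3K4me3 covered 1311 to 1548 of the 2001 bp in all 4 libraries, which does not check the genotype. Of 8 genes typical of thyroid follicular cells, 6 to 8 carried H3K4me3 at the start site in each library. Tg, which encodes thyroglobulin, had none in WT-ND or WT-LID.

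H3K27me3 is placed by Polycomb repressive complex 2 and is known as a mark of genes kept silent. In mammals it gathers at CpG islands, most of all at genes of developmental regulators, and can spread from them into wide domains. H3K4me3 marks promoters that are active or poised, and both marks can be found over the same promoter. In chromatin of a whole gland a shared position does not show that both marks lie in the same cell, and a difference in a mark cannot be told apart from a difference in the cells the gland held.

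The CpG content of the regions, described further on, is illustrated by 3 stretches of sequence from GRCm38 (mm10), in which CpG dinucleotides are in capitals. The first is the middle of the widest unbound wide region. The other pair are the 250 bp upstream of the start sites of Krt73 and Dbn1, the 2 genes marked by the widest unbound wide regions.
Middle of the widest unbound wide region, chr15:78636854-78637153, plus strand: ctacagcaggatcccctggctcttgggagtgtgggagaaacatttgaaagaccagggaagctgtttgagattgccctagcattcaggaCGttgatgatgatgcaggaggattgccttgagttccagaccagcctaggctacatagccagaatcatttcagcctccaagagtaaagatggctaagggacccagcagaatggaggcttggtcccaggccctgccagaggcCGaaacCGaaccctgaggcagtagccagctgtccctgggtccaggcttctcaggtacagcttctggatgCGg
Upstream of Krt73, chr15:101802361-101802610, minus strand: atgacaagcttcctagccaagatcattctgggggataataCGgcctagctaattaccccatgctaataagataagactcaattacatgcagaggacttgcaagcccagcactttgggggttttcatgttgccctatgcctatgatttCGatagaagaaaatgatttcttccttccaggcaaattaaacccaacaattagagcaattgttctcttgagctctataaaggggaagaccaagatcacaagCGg
Upstream of Dbn1, chr13:55488077-55488326, minus strand: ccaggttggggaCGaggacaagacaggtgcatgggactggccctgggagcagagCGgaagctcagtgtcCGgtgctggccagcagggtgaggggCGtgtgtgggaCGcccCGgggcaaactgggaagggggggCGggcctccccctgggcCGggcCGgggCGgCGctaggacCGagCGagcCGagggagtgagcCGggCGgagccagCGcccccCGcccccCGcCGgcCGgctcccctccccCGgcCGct
The middle of the widest unbound wide region held 4 CpGs in 300 bp. The Krt73 stretch had 3 CpGs in 250 bp and 42.4% G+C, and the Dbn1 stretch 23 CpGs and 77.2% G+C. Krt73 carried no H3K4me3 in any library and Dbn1 carried it in all 4.

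The unbound wide regions covered 9.13 Mb, with a median width of 2897 bp, quartiles of 2351 and 3983 bp and a maximum of 17519 bp. Of them, 641 reached 4000 bp and 41 reached 10000 bp. Just above the width limit, the 247 regions of 2000 to 2099 bp lay at a start site in 18.6% and held H3K4me3 of Glis3KO-LID in 14.6%. Just below it, the 209 regions of 1900 to 1999 bp gave 10% and 3.83%.
The widest region, chr15:78628244-78645762, lay in no annotated gene, 31197 bp from the start site of Cyth4, with 32 protein-coding genes within 500 kb of its midpoint. The next 5 were chr4:124582779-124598145 in the non-coding gene Gm2164, chr16:35283252-35298593 in Adcy5, chr4:140137947-140152975 in Igsf21, chr3:89551838-89565887 in Kcnn3 and chr8:87685070-87699101 in Zfp423. Adcy5 encodes an adenylyl cyclase, Igsf21 a synaptic adhesion protein, Kcnn3 a calcium-activated potassium channel and Zfp423 a zinc finger transcription factor. Each of these 4 regions lay inside the gene, over an exon, and away from its start site.
Among the 10 widest regions 7 overlapped an annotated gene, 3 overlapped none and 1 covered a protein-coding start site, that of Krt73. The remaining ones were chr11:96991810-97005512, 8057 bp from the start of Sp6, chr4:124960526-124974028, 12402 bp from the start of Rspo1, and chr5:112808793-112821549 inside the muscle myosin gene Myo18b. Only the region near Sp6 met an H3K4me3 peak, of 501 bp in WT-LID.

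To see what sets the unbound wide regions apart, they were compared with 3 classes of Glis3KO-LID regions that each changed 1 criterion. Shared regions (n = 2623) were wide and without TF peaks but overlapped another H3K27me3 library. TF-overlapping regions (n = 365) were wide and in Glis3KO-LID only but met an NKX2.1 or PAX8 peak. Narrow regions (n = 10348) were in Glis3KO-LID only, without TF peaks and under 2000 bp, and 6094 of them had the smallest width of 1001 bp. Gene positions, base composition and H3K4me3 were not used in the choice of regions, but the TF peaks were. Such peaks lay within 5 kb of a start site for 53.6% of all protein-coding genes. Contrasts with TF-overlapping regions in start sites and H3K4me3 are therefore not independent of the rule. The same holds where genes at unbound wide regions are set against all genes or genes without H3K27me3. The rule was not applied to those genes. Shares carry 95% Wilson intervals and differences of shares 95% Newcombe intervals, which cover the counting of regions in 1 library only and treat neighbouring regions as independent.

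The unbound wide regions lay mostly away from promoters. A protein-coding start site was within 1 kb of 464 of the 2605 regions, 17.8% (16.4 to 19.3), against 55.3% (53.4 to 57.2) of shared regions. The difference of -37.5 percentage points (-39.9 to -35.1) had the same sign on all 19 chromosomes. The TF-overlapping regions reached 35.6% and the narrow regions 6.35%.
Conversely, 48.6% (46.7 to 50.6) of the unbound wide regions overlapped no annotated gene, against 26.5% of shared regions, a difference of 22.2 points (19.6 to 24.7) with the same sign on 19 of 19 chromosomes. Of all bases of the 19 chromosomes, 59.6% lay in no annotated gene and 1.76% within 1 kb of a protein-coding start site. A further 14.9% of the unbound wide regions lay within introns alone, and 5.6% of shared regions did. The median distance to the nearest protein-coding start site was 22640 bp, and 29.8% of the regions lay more than 50 kb away.
Shared regions were wider, with a median of 5219 bp, so the comparison was repeated within ranges of width. Between 2000 bp and under 3000 bp, 17% of 1388 unbound wide regions and 47.9% of 466 shared regions lay at a start site. From 6000 bp upwards the shares were 20.5% of 215 and 60.7% of 1093. The shares of regions between genes kept the same order in all 4 ranges of width examined.

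**Figure D1:**
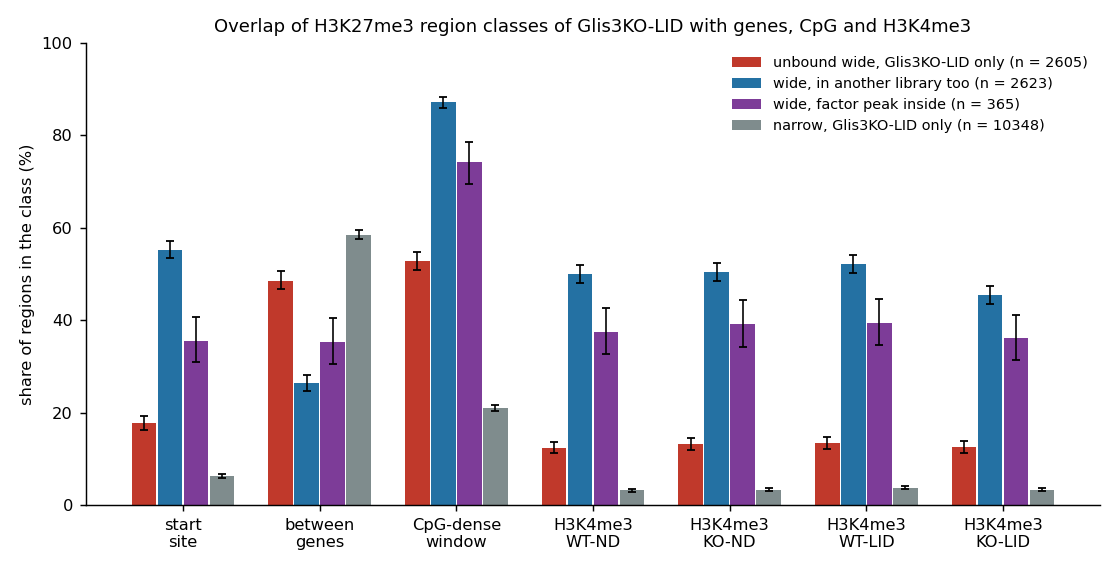
Share of regions (%) in each of 4 classes of Glis3KO-LID H3K27me3 regions that lay within 1 kb of a protein-coding start site, between genes, over a CpG-dense window, or over an H3K4me3 peak of each library (KO, Glis3KO). Bars are shares over regions and error bars 95% Wilson intervals; the unbound wide regions lie at 17.8% at start sites and 12.5% to 13.5% for H3K4me3, below the shared and TF-overlapping regions and above the narrow ones.

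The unbound wide regions lay in gene-rich surroundings although most were not at genes' starts. The median number of protein-coding start sites within 500 kb of the midpoint was 12 (quartiles 7 and 20), against 5 (quartiles 2 and 11) for 10 kb windows tiling the same chromosomes, and it was higher on all 19 chromosomes. The shared regions had the same median of 12, with the unbound wide regions higher on 9 chromosomes and lower on 7. From 2000 to under 4000 bp of width the median was 3 genes higher for the unbound wide regions, a difference smaller than the spread of the chromosome-wise differences.
In windows of 1 Mb the number of regions rose with the number of genes. Windows with no protein-coding gene held 0.0638 unbound wide regions per Mb (18 regions in 282 windows), those with 1 to 4 genes 0.453, those with 5 to 9 genes 0.935, those with 10 to 19 genes 2.31 and those with 20 or more 2.35. Mean G+C of these windows rose alongside, from 38% to 45.3%. Across 2397 windows, the rank correlation (Spearman's rho) of the number of regions was 0.509 with the number of genes and 0.69 with G+C, as a description over windows that share 1 library. By chromosome, the density ran from 0.4 regions per Mb on chromosome 3 to 1.86 on chromosome 11. Relative to genes it ran from 6.58 regions per 100 protein-coding genes on chromosome 3 to 21.8 on chromosome 4.

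Base composition differed from the genome and, in CpG content, from the shared regions. Median G+C was 50.8% against 41.4% in the 10 kb windows, and the repeat-masked share 15.2% against 28.6%, each in the same direction on all 19 chromosomes. The ratio of observed to expected CpG was 0.236 (quartiles 0.19 and 0.3), above the 0.172 of the genome windows and below the 0.33 of shared regions. The last difference, -0.094, had the same sign on 19 of 19 chromosomes, and it was not smaller in regions of 2000 to under 4000 bp, at -0.135. Median G+C differed from that of shared regions by -0.523 percentage points, on 17 of 19 chromosomes in the same direction.
A CpG-dense window of 200 bp, with over 50% G+C and an observed to expected ratio over 0.6, was present in 52.8% (50.9 to 54.7) of the unbound wide regions, in 87.1% of shared, 74.2% of TF-overlapping and 21% of narrow regions. This share depends on width, and from 2000 to under 3000 bp it was 45.2% against 79% for shared regions.

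**Figure D2:**
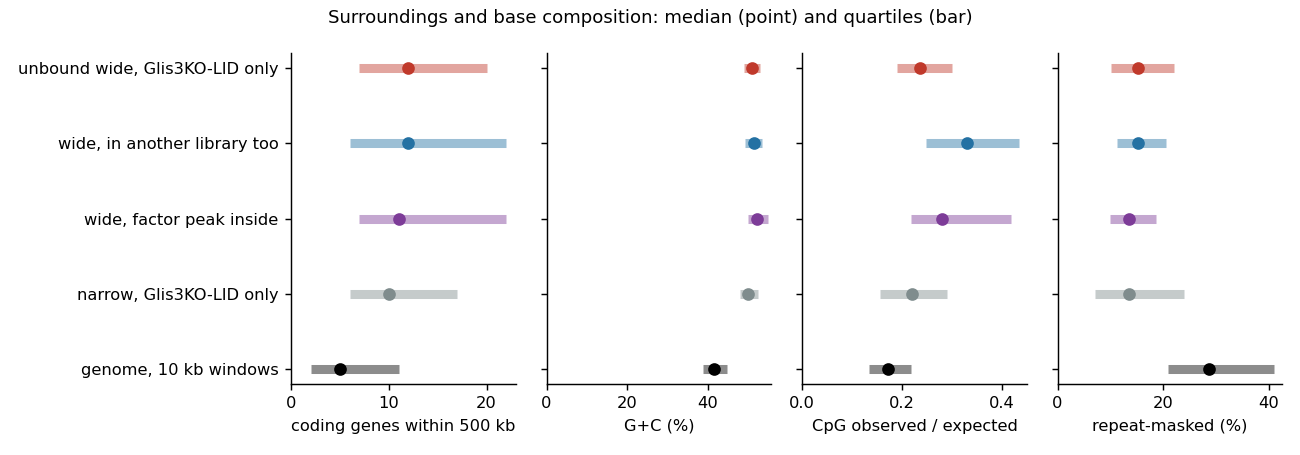
Median (point) and quartiles (bar) over regions of the number of protein-coding genes within 500 kb, G+C (%), the ratio of observed to expected CpG and the repeat-masked share (%) in the 4 classes and in 10 kb windows of the genome. All classes lie in more gene-rich and G+C-rich sequence than the genome windows, and the unbound wide regions have a lower CpG ratio (0.236) than the shared regions (0.33).

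H3K4me3 was found over few of the unbound wide regions. On the LID a peak overlapped 351 regions in WT (13.5%) and 328 in Glis3KO (12.6%), and on the ND 326 in WT (12.5%) and 345 in Glis3KO (13.2%). In shared regions the shares were 52.2% and 45.5% on the LID and 50% and 50.4% on the ND. In Glis3KO-LID, the condition in which the H3K27me3 regions were called, the difference was -32.9 points (-35.2 to -30.6), with the same sign on 19 of 19 chromosomes. Narrow regions gave lower shares, 3.27% to 3.85%. Of all bases of the 19 chromosomes, 0.893% to 1.06% lay under H3K4me3, which is a share of bases and not of regions. No H3K4me3 peak of any library met 2136 of the 2605 regions (82%), and 233 (8.94%) met one in all 4. Where it was present in Glis3KO-LID, the median overlap was 1035 bp, or 30.5% of the region.
The mark followed start sites. In Glis3KO-LID 230 of the 464 regions at a start site held H3K4me3 (49.6%), against 98 of the 2141 regions elsewhere (4.58%). Shared regions exceeded both, with 67.5% at start sites and 18.3% elsewhere. Unbound wide minus shared, the difference was -18 points (-23.1 to -12.8) at start sites and -13.7 points (-16.1 to -11.4) elsewhere. Regions at a start site with H3K4me3 had a median CpG ratio of 0.459, and those at a start site without it 0.25.
The 5 regions with most H3K4me3 in Glis3KO-LID all covered promoters. They were chr19:6399520-6405724 at Rasgrp2, chr8:128356735-128360502 at Nrp1, chr7:96209059-96212466 at Tenm4, chr2:153527639-153531852 at Nol4l and chr11:85828787-85832675 at Tbx2. Rasgrp2 encodes a Rap guanine nucleotide exchange factor, Nrp1 a receptor for semaphorins and VEGF, Tenm4 a teneurin and Tbx2 a T-box transcription factor. At Rasgrp2 the overlap on the LID was 2771 bp in WT and 3200 bp in Glis3KO, and on the ND 2642 and 2710 bp. At Nrp1 it was 3768 and 3097 bp on the LID and 3505 and 3768 bp on the ND. These 2 promoters thus kept the mark in every library, and the CpG ratio of the 5 regions ran from 0.447 to 0.687.

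A start site within 1 kb of an unbound wide region was found for 478 of 20021 protein-coding genes, 2.39% of all. Shared regions marked 1491 genes, 7.45%. Of the 478, 417 had a start site inside the region, 226 (47.3%) carried H3K4me3 at some start site in all 4 libraries and 167 (34.9%) in none. Genes can have several start sites, and at the marked start sites alone the counts were 204 (42.7%) and 185 (38.7%). In Glis3KO-LID 54.6% (50.1 to 59) of them carried H3K4me3, against 61% of all protein-coding genes and 64.5% (62.1 to 66.9) of genes marked by shared regions. At the marked start sites the shares were 51% and 63.2%. An NKX2.1 or PAX8 peak lay within 5 kb of a start site for 29.3% (25.4 to 33.5) of the 478 genes and 18.2% (16.4 to 20.3) of genes marked by shared regions. Both classes were chosen without such a peak inside the region, and the share over all genes was 53.6%. Shared regions are wider, and the part of width in this difference was not tested.
The 20 genes marked by the widest unbound wide regions split into those with and without H3K4me3. No H3K4me3 was found in any library at 10 of them, namely Krt73, a hair follicle keratin, Nos1, the neuronal nitric oxide synthase, Art1, an ADP-ribosyltransferase, Bpifb6, Tmem119, Kcnh6, a voltage-gated potassium channel, Lypd5, Stra6l, Apoa4, an intestinal apolipoprotein, and the orphan receptor gene Gpr20. The marking regions were 13530 bp wide at Krt73, 10543 bp at Nos1 and 7564 bp at Apoa4.
H3K4me3 was found in all 4 libraries at 9 genes, namely Dbn1, the actin-binding protein drebrin, Carmil3, Ankrd6, Tns3, a focal adhesion tensin, Fbln1, the matrix protein fibulin, Itga5, the fibronectin receptor subunit, Bmper, a BMP-binding protein, Kif21b, a kinesin, and B3gnt3, a glycosyltransferase. At Itga5 H3K4me3 covered 1466 bp (WT) and 1562 bp (Glis3KO) of the start window on the LID and 1489 and 1587 bp on the ND. At Dbn1 it covered 1258 and 1203 bp on the LID and 1390 and 1287 bp on the ND. At Ankrd6 H3K4me3 lay at another start site, with 0 bp in the window of the marked one in every library. The remaining gene, Lrg1, a secreted leucine-rich glycoprotein, had 0 bp in both ND libraries, 259 bp in WT-LID and 219 bp in Glis3KO-LID.

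**Figure D3:**
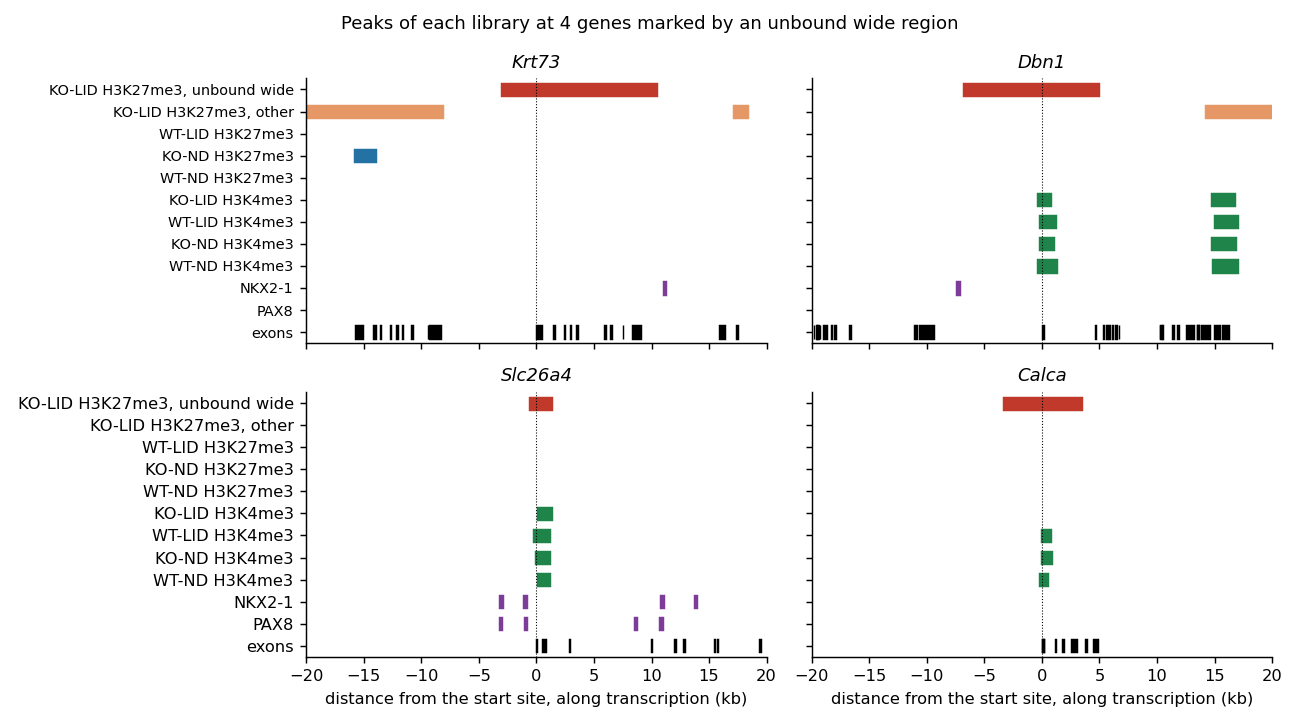
Peaks of each library within 20 kb of the start site of Krt73, Dbn1, Slc26a4 and Calca, drawn to scale along the direction of transcription (kb), with a thin outline that keeps short peaks visible (KO, Glis3KO). The unbound wide region spans the start site at each gene, with no H3K4me3 at Krt73, H3K4me3 in all 4 libraries at Dbn1 and Slc26a4, and H3K4me3 in all but Glis3KO-LID at Calca.

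The kinds of gene marked were described with 32 gene lists, set against the 2.39% of all protein-coding genes. Keratins and keratin-associated proteins, the filament proteins of epithelia and hair, were marked most often in number, at 13 of 109 genes (11.9%). It was the single list of the 32 with more genes marked by an unbound wide region (13) than by a shared region (2). Narrow regions, also of Glis3KO-LID only, marked 10 of the 109 and TF-overlapping regions 1, so keratins were not particular to the wide regions. Of the 13, 7 lay within 332.1 kb of the type II keratin cluster on chromosome 15, namely Krt5, Krt6a, Krt71, Krt73, Krt83, Krt84 and Krt86. The other 6, on chromosome 11 within 1028.8 kb, were Krt12, Krt14, Krt17, Krt42, Krt222 and Krtap16-1. Each had a region of its own, from 2093 bp at Krt12 to 13530 bp at Krt73. Krt5 and Krt14 encode the keratin pair of basal epithelial cells, and Krt83 and Krt86 keratins of hair. No H3K4me3 covered 12 of the 13 start windows in any library, and Krt222 had 501 bp in Glis3KO-ND alone.
Several lists of secreted signals and of matrix also lay above the 2.39% of all genes, whereas chemokines and receptors lay below it, with 1 of 56 (1.79%). TGF-beta and BMP ligands gave 5 of 28 (17.9%), with Inhbe, Gdf5, Gdf3 and Gdf11 among them, and shared regions marked 7. At Inhbe, an inhibin subunit gene, the region was 7004 bp wide and H3K4me3 covered 0 bp in all 4 libraries, whereas at Gdf11 it covered 1493 to 1919 bp. Collagen chains gave 7 of 42 (16.7%), led by Col6a5, Col11a1, Col5a3 and Col8a1, beside 8 marked by shared regions. Col6a5 had no H3K4me3 and Col8a1 had 1145 to 1402 bp in the 4 libraries. Of 21 extracellular matrix genes that the study named, 3 were marked (Col5a3, Col11a2 and Col15a1), a list that was chosen on thyroids of the same genotypes.
GABA and glycine receptors gave 3 of 19 (15.8%), with Gabrb2 and Glra1 among them, and shared regions marked 7. FGF ligands gave 2 of 20 (Fgf23 and Fgf12), Wnt ligands, receptors and antagonists 3 of 38 (Wnt5b, Wnt8a and Wnt5a), glutamate receptors 2 of 26 (Grik4 and Grik1) and potassium channels 6 of 92, led by Kcnh6 and Kcnk6. For each of these 4 lists the shared regions marked more genes, 10, 13, 16 and 31. At Fgf12 and Wnt5a H3K4me3 covered at least 1805 bp of another start window in all 4 libraries, and 0 bp (Fgf12) and 0 to 768 bp (Wnt5a) at the marked one.

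Transcription factors of development, the classical targets of Polycomb, were marked more often by shared regions. Over all genes the shares were 2.39% for unbound wide and 7.45% for shared regions. Homeobox and paired box factors had 1 of 119 genes (0.84%) marked by an unbound wide region, Hoxb1, and 54 (45.4%) by a shared region. Basic helix-loop-helix developmental factors had 0 of 31 against 15 (48.4%). Sox, T-box, forkhead and Gata factors had 3 of 78 (Tbx2, Tbx10 and Sox30), 3.85% and thus above the share of all genes, against 22 (28.2%). The region at Hoxb1, 4008 bp wide, held H3K4me3 over 525 bp (LID) and 501 bp (ND) of the start window in the Glis3KO libraries, and none in either WT library. Overlaps this short are near the peak size that the authors set for H3K4me3 calls, and each group had 1 library.
The large sensory families were hardly marked by either class. Olfactory receptors had 4 of 1101 genes marked, Olfr1412, Olfr1413, Olfr523 and Olfr412, and 6 by shared regions. Vomeronasal receptors (349 genes), taste and trace amine receptors (53) and killer lectin and Fc receptors (68) had 0 marked by either class, as had the Polycomb subunits (15), 10 housekeeping genes and 8 inflammation genes named by the study. Defensins (70 genes) and the UDP glucuronosyltransferases and sulfotransferases (43) also had 0 marked by an unbound wide region.
In the remaining lists the marked genes were 11 of 376 solute carriers, 3 of 90 cadherins and protocadherins, 2 of 66 axon guidance genes, 1 of 39 sodium and calcium channels, 1 of 49 synaptic adhesion genes, 2 of 98 cytochrome P450s, 1 of 62 serpins and 1 of 386 zinc finger (Zfp) genes. In all, 10 of the 32 lists had no marked gene and 15 had a share above 2.39%.

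**Figure D4:**
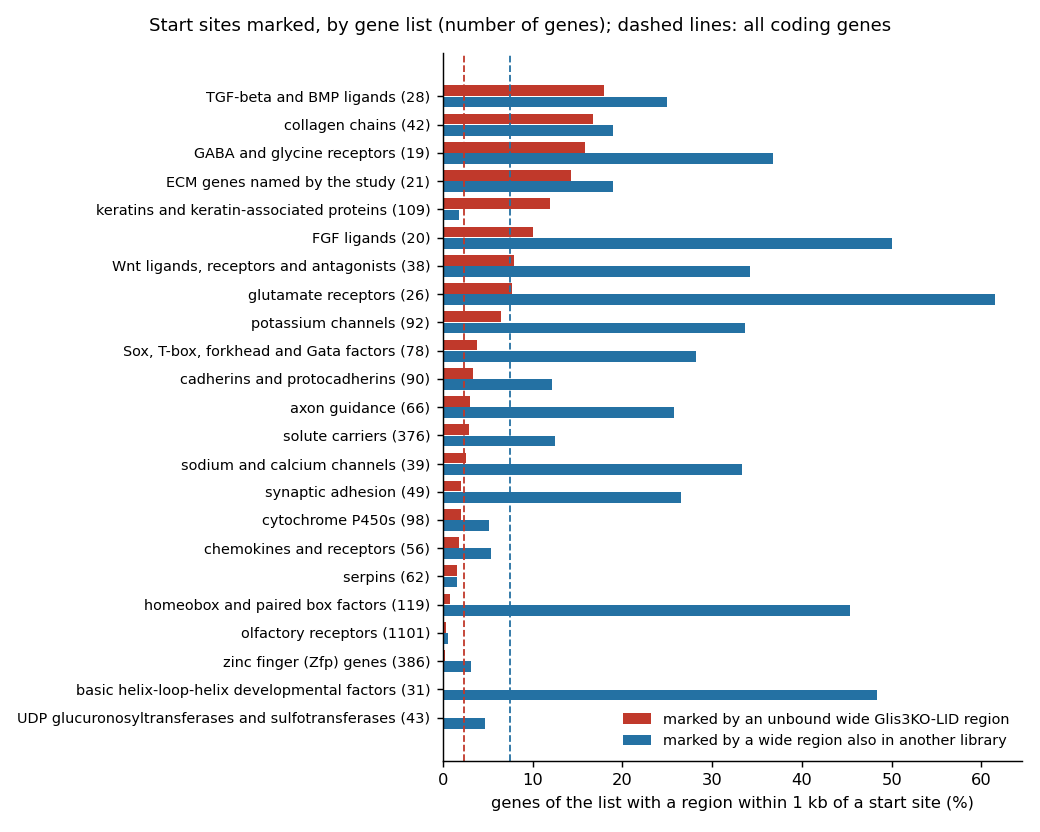
Share of the genes of each list (%, with the number of genes) that had an unbound wide region or a shared region within 1 kb of a start site, for lists of 15 or more genes with a marked gene; the dashed lines are the shares over all protein-coding genes, 2.39% and 7.45%. Keratins are marked by unbound wide regions more than by shared ones (13 against 2 genes), and homeobox and helix-loop-helix factors nearly only by shared ones.

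Among the genes of thyroid hormone (TH) synthesis, 1 of 10 was marked, Slc26a4, which encodes the iodide transporter pendrin, and none of 8 TSH-induced genes was. The region, chr12:31558631-31560639, was 2009 bp wide, just above the width limit, and spanned the start site. On the LID H3K4me3 covered 1264 bp (WT) and 994 bp (Glis3KO) of the start window, and on the ND 969 and 1123 bp. An H3K4me3 peak was thus called in every library. By RNA-Seq, the study reports lower Slc26a4 expression in Glis3KO-LID than in WT-LID thyroid. The nearest TF peak, of PAX8, lay 782 bp upstream of the start site, just outside the region, and overlapped an NKX2.1 peak. Along transcription, the region ran from -655 to 1353 bp of the start site and the PAX8 peak from -1082 to -783 bp. The study reports binding of PAX8, NKX2.1 and GLIS3 at the proximal promoter of Slc26a4, so that unbound here rests on a short gap. Of 8 follicular cell markers none was marked by an unbound wide region.
Markers of other cell types were marked in 2 cases. Lep, the adipocyte hormone leptin, had no H3K4me3 in any library, nor had the other 2 adipocyte markers. Calca, which encodes calcitonin and is expressed in the C cells of the gland, lay under a region of 6867 bp, chr7:114632876-114639742. On the ND H3K4me3 covered 752 bp (WT) and 909 bp (Glis3KO) of its start window, and on the LID 931 bp in WT and 0 bp in Glis3KO. Of the C cell markers reported here, Calcb and Chga had none in any library. The part of the cell makeup in this was not tested.

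Calca was 1 of 14 marked genes, 2.93% of the 478, whose H3K4me3 was present in the 3 other libraries and missing in Glis3KO-LID. The same pattern was found in 495 of all 20021 protein-coding genes (2.47%) and in 7.04% of genes marked by shared regions, and the interval for the 478 genes, 1.75 to 4.86%, includes the share of all genes. The others included Plin5, a lipid droplet protein under a region of 10823 bp, Acp5, an acid phosphatase of osteoclasts and macrophages, Gabrb2, a GABA receptor subunit, Zfp469 and Sulf1, a sulfatase of heparan sulfate. At Zfp469 the overlap was 1535 bp (WT) and 0 bp (Glis3KO) on the LID and 1487 and 1314 bp on the ND. For Nfasc, a cell adhesion gene of neurons also among the 14, the H3K4me3 lay at another start site, and the marked one had none in any library. These genes were picked out after their values were seen.
Of the marked genes with H3K4me3 in WT-LID, 31 of 272 (11.4%, 8.15 to 15.7) had none in Glis3KO-LID, against 504 of 10430 (4.83%) for genes with no Glis3KO-LID H3K27me3 at the start site and 6.77% over all genes. The difference from genes without H3K27me3 was 6.56 points (3.29 to 10.9), and with the marked start sites alone, 31 of 253, it was 7.42 points (3.91 to 12.1). On the ND the same comparison gave 18 of 270 (6.67%) against 2.1%, a difference of 4.56 points (2.14 to 8.2). Of the genes marked by shared regions with H3K4me3 in WT-LID, 18.4% had none in Glis3KO-LID. The unbound wide minus shared difference was -7 points (-11.1 to -2.15). In each case a peak was called in 1 library and not in another, which does not measure a loss. H3K4me3 peaks covered 26.7 Mb in WT-LID and 22.6 Mb in Glis3KO-LID. The opposite pattern, a peak in Glis3KO and none in WT, was also more frequent at the marked genes than over all genes. Of those without H3K4me3 in WT-LID, 20 of 206 (9.71%) had it in Glis3KO-LID, against 3.74% over all genes and 18.6% for shared regions. On the ND it was 24 of 208 (11.5%) against 6.28% and 30.8%.
H3K4me3 was also shorter at the marked genes. In WT-LID it covered a median of 1303 bp of the start window, against 1561 bp at genes without H3K27me3, and 20.6% against 7.96% of these genes had under 1000 bp. Where it covered under 1000 bp the share with none in Glis3KO-LID was 41.1% (23 of 56) against 34.5%. From 1000 to under 1500 bp, the range of 43.4% of the marked genes, it was 5.93% (7 of 118) against 3.83%, and where it covered 1500 bp or more it was 1.02% (1 of 98) against 1.17%. The intervals overlapped in each of the 3 ranges, which does not show that the shares were equal. On the ND, with ranges set by WT-ND, the shares were 23.2%, 1.94% and 0% against 19.5%, 0.842% and 0.262%. Genes marked by shared regions gave 40.8%, 10.7% and 5% on the LID. Whether the length of H3K4me3 accounts for the difference in missing peaks was not tested.

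The unbound wide regions clustered along the chromosomes. Another such region lay within 100 kb of 1633 of the 2605 regions, 62.7% (60.8 to 64.5), and of 54.3% (52.4 to 56.2) of the 2623 shared regions. The median distance to the nearest region of the same class was 51.1 kb, against 79.4 kb for shared regions. Within 10 kb the classes were alike, with such a neighbour for 19.6% of the unbound wide and 19.9% of the shared regions. Joined over gaps of up to 100 kb, the regions formed 1472 chains, of which 972 were single regions and 79 had 5 or more members. Those 79 chains held 561 regions, and the shared regions formed 49 such chains with 319. In windows of 1 Mb, the 10% of windows with the most regions (240 of 2397) held 60% of the unbound wide regions and 50.2% of the shared ones, and 62.7% of windows held none.
Regions in long chains differed from single ones. A start site was within 1 kb of 27.1% of the 972 single regions and 8.02% of the 561 regions in chains of 5 or more, a difference of 19 points (15.3 to 22.5) with the same sign on 18 of 19 chromosomes. H3K4me3 of Glis3KO-LID lay over 21.7% and 2.85%, a difference of 18.9 points (15.8 to 21.8) with the same sign on all 19. The median CpG ratio was 0.27 in single regions and 0.211 in long chains. The long chains were also closer to H3K27me3 of the other libraries, with a median distance of 20.4 kb against 73.5 kb.

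The chain with the most regions, chr4:131035461-131678109, had 16 over 642.6 kb, and they covered 10.7% of it. It held no protein-coding gene, lying between Matn1, 80 kb before it, and Ptpru, 90.3 kb after it, and none of the 16 met H3K4me3 of Glis3KO-LID. A further 36 Glis3KO-LID H3K27me3 peaks lay between them, against 1 in WT-LID, 2 in Glis3KO-ND and 0 in WT-ND, together with 10 NKX2.1 and 14 PAX8 peaks.
The second chain, chr9:61012570-61361926, had 15 regions over 349.4 kb, also without a protein-coding gene. It ended 10.4 kb before Tle3, a transcriptional corepressor gene, and overlapped 4 non-coding genes, among them B930092H01Rik. It held 14 NKX2.1 and 16 PAX8 peaks between the regions, and the 1 Mb window that holds it had the most unbound wide regions of all, 25.
The next chains lay over long genes. The third, chr8:87590410-88039037, had 12 regions over Zfp423 and its surroundings. The fourth, chr10:60410131-60809046, had 12 over Cdh23, a cadherin of hair cells, and Unc5b, a netrin receptor gene, and 1 of them lay at a start site. The fifth, chr4:151180698-151551748, had 11 regions, all inside Camta1, which encodes a calmodulin-binding transcription activator. None of the regions in these 3 chains met H3K4me3 of Glis3KO-LID.

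**Figure D5:**
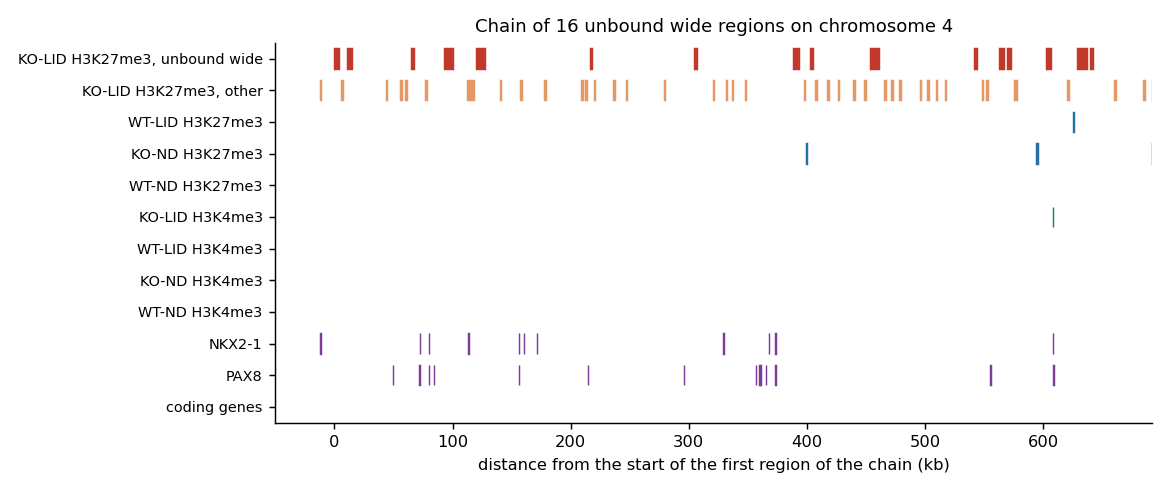
Peaks of each library along the chain of 16 unbound wide regions on chromosome 4, to scale in kb from the start of its first region, with a thin outline that keeps short peaks visible (KO, Glis3KO). The chain holds no protein-coding gene; the 16 regions alternate with 36 other H3K27me3 peaks of Glis3KO-LID, and the 3 other H3K27me3 libraries have 3 peaks between them.

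Within gene bodies, 1001 protein-coding genes, 5% of all, held at least 1 unbound wide region and 165 held more than 1. Camta1 held 13 over 802.2 kb, Cdh23 held 9, Gabbr2, a GABA-B receptor subunit gene, 8 and Zfp423 held 7. Myo18b, Kcnn3 and Pebp4 held 6 each, and Scn8a, a sodium channel gene, Rbfox3, a neuronal splicing factor gene, and Tll2, a metalloproteinase gene, held 5 each. The regions covered 55920 bp of Camta1 and 48209 bp of Zfp423. Of these 10 genes only Cdh23 had a start site within 1 kb of a region. H3K4me3 covered the whole 2001 bp start window of Camta1 and of Zfp423 in all 4 libraries, and none of that of Cdh23, Myo18b or Pebp4. At Tll2 it covered 1106 bp (WT) and 0 bp (Glis3KO) on the LID and 1024 and 1452 bp on the ND. Genes with many regions in the body thus included some with and some without H3K4me3 at the promoter.

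Distances to other H3K27me3 and TF peaks are given as description, since the regions were chosen not to touch them. The nearest H3K27me3 peak of another library was a median of 29773 bp away (quartiles 9380 and 102814 bp). It was within 10 kb for 26% (24.3 to 27.7) of them, against 16.1% (15.5 to 16.9) of narrow regions. The nearest NKX2.1 or PAX8 peak was a median of 11450 bp away.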

How the data were processed

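H3K27me3, H3K4me3, NKX2.1 and PAX8 ChIP-Seq peaks of mouse thyroid glands were taken as deposited. The NKX2.1 and PAX8 files held 46636 and 51586 peaks, in each case more than the study reports. The authors trimmed reads with Cutadapt (1.12), kept unique Bowtie (1.2) alignments to mm10, took out duplicate reads by means of Picard (1.110) and found peaks by HOMER (4.10.3), in region mode for histone marks and in factor mode against input, resized to 300 bp, for TFs (versions as in the submitters' processing notes). The deposited files give peak positions only, with no score, signal or read count, so that the depth per library is unknown. The sources used here do not say whether an input entered the histone calls.

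Overlap meant 1 shared base. Genes were the curated RefSeq transcripts of GRCm38, with 20021 protein-coding genes on chromosomes 1 to 19, and sequence and promoters came from RefSeq's GRCm38.p6. A gene was marked if a region lay within 1 kb of a start site, and peak positions are counted from 1. The width of H3K4me3 at a gene is that in the 2001 bp around the start site where it was longest. Python 3.11.15, numpy 2.4.6 and pandas 2.3.3 were used, and the overlap and interval functions were tested on simulated data. With 1 library per group no test across samples could be run.

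The regions, gene lists and comparisons were chosen with earlier results of these data known. Named were the 10 widest regions, the 5 chains with most regions, the 5 regions with most Glis3KO-LID H3K4me3, the 20 genes marked by the widest regions (1 per region), the 10 genes with most regions in the body and up to 4 genes per list by the width of the marking region. All 13 keratins and the genes with H3K4me3 missing in Glis3KO-LID alone were added after their values were seen. The rat libraries, the unified peak lists and the inputs were not used here, and results that need certain genes or stretches of sequence are not reported here. Alternatives changed the width limit, what counts as overlap, the chromosomes, the start site window, the density window and the gap within a chain.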

Additional observations from a re-analysis of the deposited data

Results flagged for a closer look

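The share of unbound wide regions that met H3K4me3 moved in opposite directions with genotype on the 2 diets. Glis3KO minus WT it was 0.729 percentage points on the ND (71 regions with H3K4me3 in Glis3KO-ND only and 52 in WT-ND only) and -0.883 points on the LID (58 in Glis3KO-LID only and 81 in WT-LID only). Each group had 1 library and the difference between the diets was not tested. The H3K4me3 libraries themselves had 17044 and 16590 peaks in WT-ND and Glis3KO-ND, and 16824 and 15692 in WT-LID and Glis3KO-LID.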

How the results depend on the processing

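Of 51 values recomputed under 11 other settings, 33 stayed within the interval or spread of the reported value (or within 1.5 times for counts), 18 moved and 0 reversed. The differences between unbound wide and shared regions in H3K4me3, start sites, regions between genes and CpG ratio kept their sign in every setting, and the gene density difference ran from 0 to 3 genes.
From 3000 bp of width there were 1217 regions, 239 marked genes and 50.1% of regions within 100 kb of another, and from 5000 bp 357 regions, 77 genes, 26.1% and an H3K4me3 difference of -38.1 points. Fewer regions are left under these limits. Where peaks within 2500 bp counted as overlap 57.8% lay within 100 kb of another. Where overlap counted from 10% of the region that share was 65.9%, the H3K4me3 difference -37.6 and the start site difference -40.2 points. Gaps of 50 and 250 kb gave 49.5% and 78.4% of regions with a neighbour.
With widths from 2000 to under 4000 bp in both classes, chosen after the data were seen, the differences were -24.7 points for H3K4me3, -33.1 for start sites, 18 for regions between genes, 3 genes and -0.135 in CpG ratio. Regions with Glis3KO-LID peaks alone depend on the depth of that library against the others, which is unknown. No paired analysis was possible because each group had 1 library, and leaving out a replicate could not be done.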
